A study of Canis lupus familiaris with 2 samples.

Results

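miR-191, miR-320, miR-423, miR-425 and miR-484 are miRNAs that are often used to normalize assays of serum and plasma. The members were taken by name from the spots of a dog miRNA chip, whatever letter or arm suffix the name carried. This gave 4 of the 291 dog miRNAs, miR-191, miR-320, miR-423a and miR-425, each with 1 spot per array, and no spot was found for miR-484. The arrays compared serum of normal male dogs with serum of affected male dogs of the CXMD_J colony, a dog model of Duchenne muscular dystrophy that lacks functional dystrophin, all at 2 months of age and without any treatment named. Serum of 3 dogs per group was pooled before RNA extraction, so 1 array stands for each condition, the differences between dogs are not seen, and no test between the conditions could be made. The question asked of the 4 miRNAs was how steady they were between the 2 pools.

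In tissue, ribosomal or small nucleolar RNAs often serve as internal controls. Serum is free of cells, and its miRNAs travel in vesicles, protein complexes and lipoproteins. A serum miRNA is therefore often measured relative to another serum miRNA that is taken to be unaffected by the condition, and any change of that reference passes into every other value. The members here are made by many cell types. miR-191 and miR-425 come from the same gene cluster. miR-320 belongs to the miRNAs whose precursor is capped and reaches Dicer without cleavage by Drosha. miR-423 is processed from an intron. All 4 matched a dog gene by name in RefSeq (assembly UU_Cfam_GSD_1.0), from which names and the order of genes were taken and nothing else. MIR191 and MIR425 were next to each other between NDUFAF3 and DALRD3. MIR423A lay inside NSRP1, and MIR320 lay between POLR3D and PHYHIP.

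The scanner gave 3200 spots per array, including 1408 blank spots, 181 spots named as without a probe and 32 negative controls. The brightness of the blank spots, 118 in normal and 116 in dystrophic serum, was subtracted from each spot, and the limit of detection was set 2 SD above it, at 126 and 124. The resulting net signals were then multiplied by a factor per array that brings the median of its detected dog miRNAs to 25, with factors of 1.04 and 0.827. At this limit 159 and 188 dog miRNAs were detected, and 142 (48.8%) in both pools. The limit is close to the background, as 9.38% and 8.59% of the blank spots were above it. Precision is limited by the number of arrays.

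All 4 reference miRNAs were detected in both pools, and none of their spots was marked as unusable. The spot of miR-423a read 249 in normal and 294 in dystrophic serum, and that of miR-320 read 214 and 231. No blank spot, spot without a probe or negative control was as bright as these on the same array. The spot of miR-191 read 166 and 162. In normal serum 5 blank spots and 4 spots without a probe were as bright or brighter, and in dystrophic serum 3 blank spots and 4 spots without a probe. The spot of miR-425 read 139 in normal serum, where 29 blank spots (2.06%), 13 spots without a probe and 8 negative controls reached it. In dystrophic serum it read 157, and 4 blank spots, 5 spots without a probe and no negative control reached it. Relative to the SD of the trimmed blank spots, the net signal of miR-425 was 5.31 SD in normal serum, whereas that of miR-423a was 33.3 SD. Thus miR-423a and miR-320 stood clear of the control spots, while miR-191 and miR-425 lay within their range on both arrays. The most control spots reached miR-425 in normal serum.

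**Figure D1:**
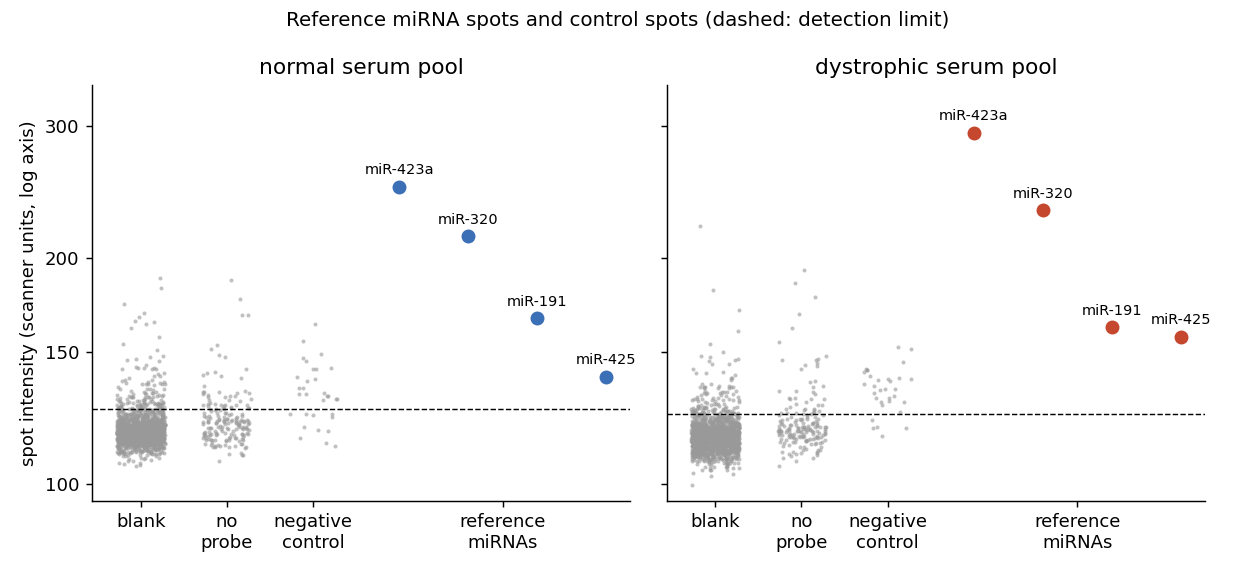
Spot intensity (scanner units, log axis) of the blank, no-probe and negative control spots (grey points, 1 per spot) and of the 4 reference miRNAs (colored points) on the array of the normal and of the dystrophic pool; the dashed line is the detection limit. miR-423a and miR-320 lie above all control spots, while miR-191 and miR-425 lie within their range, miR-425 in normal serum lowest at 139.

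The 4 miRNAs differed in how much they moved between the pools. The normalized signal of miR-423a was 136 with normal and 147 with dystrophic serum. The ratio of dystrophic over normal was 1.08. The error of a ratio was estimated from the spread of the blank spots and from the variation between the spots of 10 bright control probes (coefficient of variation 6.67%), and gave a 95% spot-noise interval of 0.865 to 1.35 for miR-423a. This interval covers the noise of single spots and leaves out dogs, RNA preparations and arrays. For miR-320 the signals were 99.6 and 95.6 in the same order, and the ratio was 0.960 (interval 0.744 to 1.24). Both miRNAs therefore had nearly the same signal in the 2 pools, and their intervals left out a difference of 2-fold in either direction as far as spot noise is concerned. The signal of miR-191 was lower in dystrophic serum, 37.9 compared with 50.1 in normal serum, a ratio of 0.756 (interval 0.492 to 1.16). That of miR-425 was higher, 34.1 compared with 21.7, a ratio of 1.57 (interval 0.762 to 3.22). The interval held 1 for both, so neither difference was larger than spot noise, and it was too wide to show that either miRNA stayed within 2-fold.

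**Figure D2:**
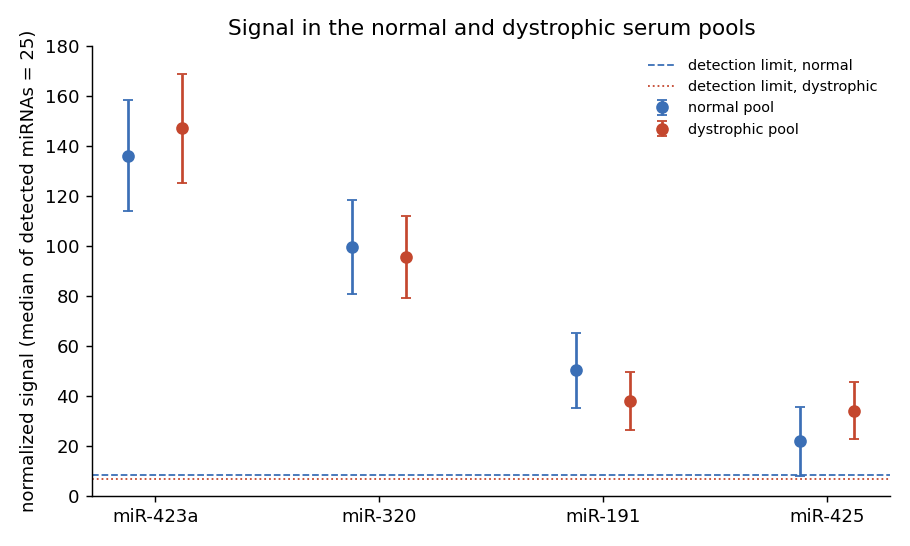
Normalized signal (median of the detected miRNAs of each array set to 25) of the 4 reference miRNAs in the normal pool (blue) and the dystrophic pool (red), with 95% spot-noise intervals as bars and the detection limits as lines. The pairs of points for miR-423a (136 and 147) and miR-320 (99.6 and 95.6) nearly coincide, and the intervals overlap for all 4.

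None of the 4 passed the limits used in the study. Of the 142 miRNAs detected in both pools 13.4% were above 2-fold, 5.63% were at 0.5-fold or below, and 19.0% were beyond either limit. A ratio within 1.5-fold in either direction was found for 3 of the 4, all but miR-425. The share over all 142 was 56.3%, and 81.0% lay within 2-fold, so that staying within these limits was common on these arrays. The spot-noise interval held 1 for 4 of the 4 compared with 69.7%, and lay within 2-fold for 2 of the 4 compared with 26.8%. Both of these shares differed with brightness, as given below. The median ratio was 1.02 for the 4 and 1.09 for all 142. When the 142 were ordered by the size of their log2 ratio, miR-320 was the 12th nearest to a ratio of 1, miR-423a the 23rd, miR-191 the 63rd and miR-425 the 85th. In that order 7.75% of the miRNAs were nearer to 1 than miR-320, and 59.2% were nearer than miR-425.

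Brightness moved with this order. Of the 142, the 71 with a normalized signal of at least 25 in both pools were within 1.5-fold in 66.2% of cases, with a median absolute log2 ratio of 0.37. The other 71 were within 1.5-fold in 46.5%, with a median absolute log2 ratio of 0.66. The spot-noise interval held 1 for 54.9% of the brighter 71 and for 84.5% of the other 71. It lay within 2-fold for 38 of the brighter 71 and for 0 of the other 71. miR-423a, miR-320 and miR-191 belong to the former and miR-425, with 21.7 in normal serum, to the latter. The part of brightness in the ratios of the 4 was not tested.

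**Figure D3:**
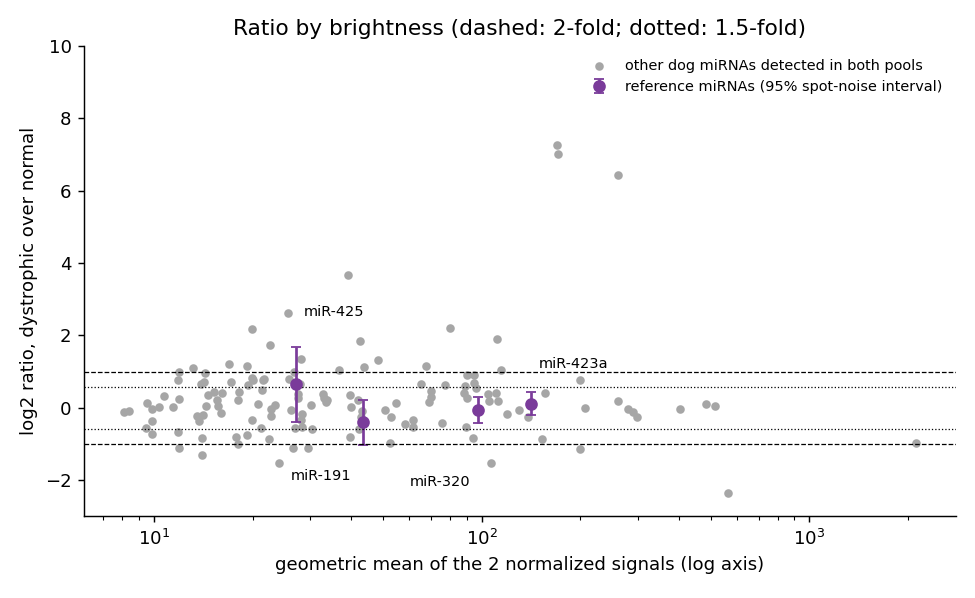
Log2 ratio of dystrophic over normal against the geometric mean of the 2 normalized signals (log axis) for the 142 dog miRNAs detected in both pools. The 4 reference miRNAs are in purple with 95% spot-noise intervals, the lines mark 1.5-fold and 2-fold, and miR-320 (ratio 0.960) and miR-423a (1.08) lie nearest to 0 among the 4.

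The ratio of 2 miRNAs on the same array does not depend on a scaling factor between the arrays, so the 4 were also compared with each other. A spot's brightness depends on its probe, and only the change of such a ratio between the pools is given. The ratio of miR-423a to miR-320 was 1.12-fold higher in dystrophic than in normal serum (spot-noise interval 0.802 to 1.58). This was the smallest change of the 6 pairs. That of miR-320 to miR-191 was 1.27-fold higher (0.771 to 2.09), and that of miR-423a to miR-191 was 1.43-fold higher (0.881 to 2.32). Against miR-425 the other 3 were lower in dystrophic serum. The change was 0.690 for miR-423a (0.324 to 1.47), 0.613 for miR-320 (0.285 to 1.32) and 0.483 for miR-191 (0.209 to 1.12). miR-191 and miR-425, the members that are neighbors in the genome, thus had the largest change between them, and its interval held 1 like those of the other 5 pairs. In 4 of the 6 pairs the change was within 1.5-fold. Over the 10011 pairs that the 142 miRNAs form, 40.5% were within 1.5-fold.

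The ratios shifted together with the scaling of the arrays. Without scaling, the dystrophic over normal ratio of the net signals was 1.36 for miR-423a, 1.21 for miR-320, 0.951 for miR-191 and 1.97 for miR-425. With the median of the miRNAs detected on both arrays as the common level, the ratios were 0.887, 0.789, 0.621 and 1.29. miR-423a and miR-320 were therefore above 1 under the former and below 1 under the latter. miR-191 stayed below 1 and miR-425 stayed above 1 under each alternative that gave a ratio. Among these alternatives, which leave out scaling on a single miRNA, a member passed the limits of the study with untrimmed blank spots, miR-425 with 2.05. Scaling on the 10 bright control probes gave 1.30 for miR-423a, 1.16 for miR-320, 0.912 for miR-191 and 1.89 for miR-425. Of these probes, S-Probe6 had an unscaled ratio of 2.22, while the others ran from 0.854 to 1.06. S-Probe6 thus lowered these ratios of the 4 members. Scaling without S-Probe6 was not tested, so whether miR-425 would then pass 2-fold is not known. Subtracting the local background around each spot left none of the 4 detected in both pools. That background read 260 beside the spot of miR-423a in normal serum and 174 beside that of miR-191 in dystrophic serum, brighter than the spots themselves (249 and 162).

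**Figure D4:**
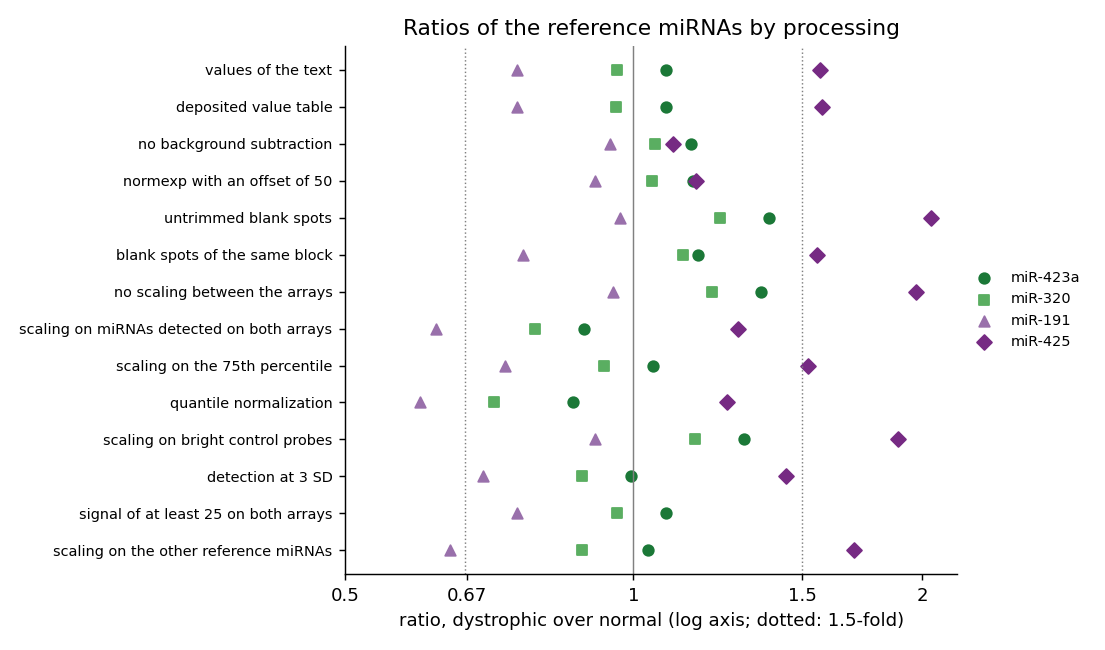
Ratio of dystrophic over normal (log axis) of the 4 reference miRNAs with the values of the text (top) and under each alternative processing that gave a ratio; dotted lines mark 1.5-fold. Another scaling factor moves the 4 points sideways together, while leaving the background in brings them close to each other, from 0.946 for miR-191 to 1.15 for miR-423a.

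Other miRNAs that have been used as references in serum ranged from a ratio of 0.346 to one of 3.33. Of a list of 16, 14 were on the chip. In both pools 10 were detected, 3 were detected in normal serum alone (let-7g, miR-186 and miR-222) and 1 in dystrophic serum alone (miR-30e). Of the 10, 7 were within 1.5-fold, compared with 56.3% of all miRNAs detected in both pools and 3 of the 4 members, 1 was above 2-fold and 1 at 0.5-fold or less, and 8 had a ratio below 1. Their median ratio was 0.776. miR-23a, with 284 in the normal and 275 in the dystrophic pool, had a ratio of 0.968 (interval 0.797 to 1.18). miR-24, which is made from the same clusters as miR-23 and miR-27, had a ratio of 1.07 (0.886 to 1.29), with signals of 469 and 501. miR-16, abundant in red cells and a widely used serum reference, had signals of 182 and 62.7 and a ratio of 0.346 (0.266 to 0.448). miR-103 was at 12.4 and 41.4, a ratio of 3.33 (1.07 to 10.4) that rests on a dim spot in normal serum. miR-15b, of the miR-16 family, had a ratio of 0.576 (0.359 to 0.924), miR-93 one of 0.688 (0.495 to 0.958) and miR-25 one of 0.696 (0.534 to 0.907). Thus, with the median scaling, miR-16, miR-15b, miR-93 and miR-25 had an interval below 1, and none of the 4 members did. Another scaling factor multiplies the intervals together with the ratios, so which of them hold 1 depends on the scaling.

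Markers of blood cells and muscle differed between the pools on the same arrays. Of the 3 red-cell miRNAs listed, miR-486 had no spot, miR-144 was detected in neither pool, and miR-451 had signals of 1276 in the normal and 250.0 in the dystrophic pool, with a ratio of 0.196 (interval 0.162 to 0.237). The change of miR-451 over miR-23a, a ratio used to judge how many red cells have broken in a serum sample, was 0.202 (interval 0.154 to 0.266). Of the platelet miRNAs, miR-223, which neutrophils also hold, had signals of 206 and 113 and a ratio of 0.549 (0.442 to 0.682), and miR-126 was detected in neither pool. Of the 5 muscle miRNAs, 4 were detected in both pools, with ratios from 12.6 to 152, and miR-1 in dystrophic serum alone. Their summed normalized signal was 67.7 in normal and 6616 in dystrophic serum. Of the liver miRNAs, miR-122 had a ratio of 0.943 (interval 0.122 to 7.26) and miR-192 of 0.889 (0.475 to 1.66). The signals of miR-122, 8.63 in normal and 8.14 in dystrophic serum, were close to the normalized detection limits of 8.19 and 6.81. These intervals are too wide to show that either liver miRNA was steady. The part of blood cells and muscle in the values of the reference miRNAs was not tested. With pooled serum, a difference in the number of releasing cells, in RNA per cell or in red cells broken in the sample cannot be told apart.

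When all 4 members were used to scale the arrays in place of the median, the other values moved little. The geometric mean of their ratios was 1.05 (interval 0.840 to 1.32), so that each ratio was multiplied by 0.950. The number of miRNAs above 2-fold was then 17, compared with 19, and 11 were at 0.5-fold or below, compared with 8. The same call was made for 25 miRNAs with either scaling. The share of calls that were elevations was 60.7% compared with 70.4%. miR-188, the miRNA followed in the study, had a ratio of 2.36 compared with 2.48, and miR-500 one of 2.20 compared with 2.31. With the median scaling the spot-noise interval was 1.51 to 4.09 for miR-188 and 0.633 to 8.46 for miR-500. The interval of miR-500, whose signal in normal serum was 11.2, thus held 1. The intervals of both miRNAs held a ratio of 2, so on which side of 2-fold miR-188 or miR-500 falls is within spot noise. With miR-320 and miR-423a as the reference, miR-188 had a ratio of 2.44, and 19 and 11 miRNAs were called. The small shift depended on using miR-191 and miR-425 together, as their ratios lie on opposite sides of 1. Without miR-191 the counts were 12 and 17, and miR-500 was at 1.97, under 2-fold. Without miR-425 the counts were 24 and 6.

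The choice of a single reference mattered more. With miR-423a alone 16 and 11 miRNAs were called, and with miR-320 alone 22 and 8. Scaling on miR-191 alone gave 40 above 2-fold and 3 at 0.5-fold or less, so that 93.0% of the calls were elevations. Scaling on miR-425 alone gave 10 and 33, or 23.3% elevations. The ratio of miR-188 was 3.28 with the former and 1.59 with the latter, and that of miR-500 was 3.06 and 1.48. Both were therefore below 2-fold when miR-425 was the reference. The muscle miRNA miR-206 stayed above 2-fold with each single member, from 8.05 to 16.7, and miR-451 stayed at 0.5-fold or less, from 0.125 to 0.259. The spread between single members, 0.756 to 1.57, is within the spot noise of miR-191 and miR-425. Of the references outside the 4, miR-24 and miR-23a gave the counts of miR-423a and miR-320. With miR-24 alone 16 and 11 miRNAs were called, and with miR-23a alone 22 and 8. With miR-16 as the only reference every ratio was multiplied by 2.89, which put 115 miRNAs above 2-fold and none at 0.5-fold or less, miR-451 included at 0.567. miR-188 was then at 7.18. With miR-103 as the only reference, whose spot in normal serum was dim, every ratio was multiplied by 0.300, which put 4 miRNAs above 2-fold and 111 at 0.5-fold or less, and miR-188 was at 0.746.

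**Figure D5:**
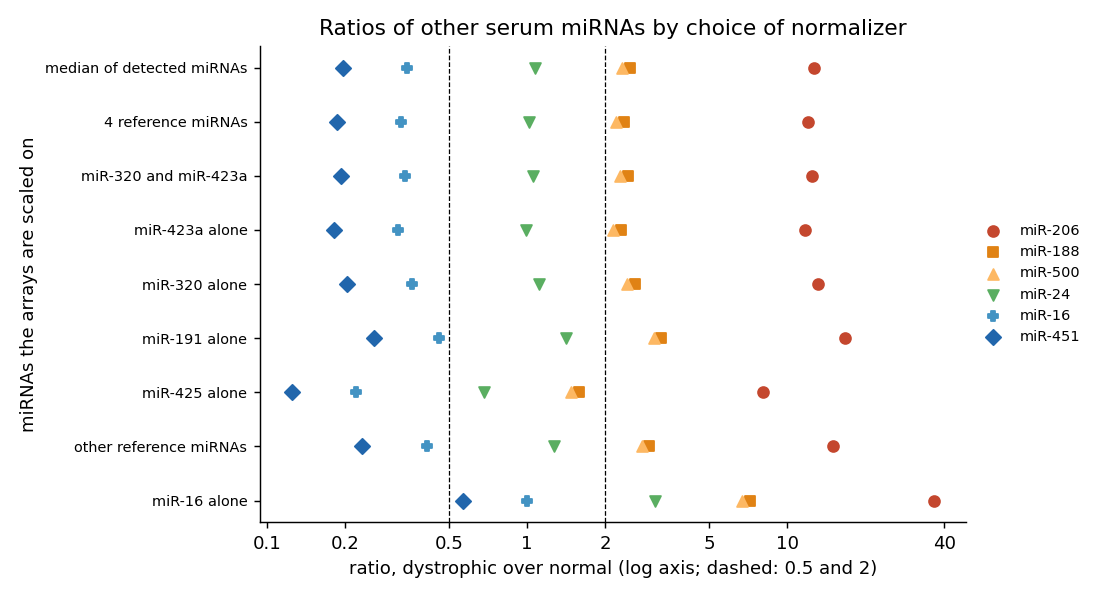
Ratio of dystrophic over normal (log axis) of 6 other serum miRNAs when the arrays are scaled on different references; dashed lines mark 0.5 and 2. miR-188 runs from 1.59 with miR-425 alone to 3.28 with miR-191 alone and lies at 7.18 with miR-16 alone, while miR-206 stays above 2 throughout.

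With 1 value per pool, the miRNAs most like a member are those with the nearest pair of signals, measured as the distance of the log2 signals over the 2 pools among the other 141 miRNAs. Nearest to miR-423a were miR-489 (distance 0.21, ratio 0.952) and miR-1837 (0.27, ratio 0.834). Nearest to miR-320 were miR-1307 (0.23, ratio 1.14) and miR-346 (0.29, ratio 1.21). Those of miR-191 were miR-205 (0.11, ratio 0.840) and miR-505 (0.15, ratio 0.660). miR-425 lay next to miR-551a (0.05, ratio 1.58) and miR-1840 (0.15, ratio 1.74). For all 8 the spot-noise interval of the ratio held 1.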

How the data were processed

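Serum miRNAs of 2 pools, each of 3 dogs, were measured on 1-color 3D-Gene chips (Cy5). The authors deposited the output of the scanner, read with 3D-Gene Extraction, which gives the unnormalized median intensity of every spot, and a table of intensity values after global normalization. Groups were taken from the labels. The trimmed mean of the blank spots (5% removed at each end) was subtracted, detection was set at 2 SD, and each array was scaled so that its detected dog miRNAs had a median of 25. These signals differed from the deposited intensity values by at most 0.0498 units, and detection was the same for all 291 miRNAs.

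The 95% spot-noise interval combined the central 95% range of the blank spots with the coefficient of variation of control probes that have 8 spots and a net signal of at least 5 times the height of the limit on both arrays. No p-value was computed. The steps were tested on simulated data, whose noise came from the same blank spots and coefficient of variation as the interval. Such data cannot show whether the interval covers differences between dogs, RNA preparations or arrays. The members and lists were chosen with earlier results of these data known. The miRNAs named were the members, the listed reference, muscle, blood and liver miRNAs, the 2 nearest to each member, miR-188 and miR-500. Alternatives changed the background, scaling, detection, filter on dim signals, choice of reference, or took the deposited table. The software was R 4.3.3 with limma 3.58.1 for normexp, and Python 3.11.15 with numpy 2.4.6, pandas 2.3.3 and matplotlib 3.10.9. Mature sequences were not used here.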

Additional observations from a re-analysis of the deposited data

How the results depend on the processing

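Of 51 ratios of the 4 members under the alternatives, 47 stayed inside their spot-noise interval. The exceptions were miR-423a, with 1.38 for untrimmed blank spots, 1.36 without scaling and 0.864 with quantile normalization, and miR-320, with 0.715 with quantile normalization. All 42 changes between pairs of members stayed inside theirs. The number of members within 1.5-fold was 3 or 4 under most alternatives that kept this limit and gave the members a ratio. Scaling on the other reference miRNAs put miR-191 (0.643) and miR-425 (1.70) outside. With scaling on the miRNAs detected in both pools (0.621) and quantile normalization (0.598), miR-191 was outside and miR-425 inside. All 4 were inside without background subtraction, with normexp and with detection at 3 SD. The share of all miRNAs detected in both pools was then 92.3%, 87.3% and 60.2%, compared with 56.3%. Of the members, 2 met a tighter limit and 4 one of 2-fold. Their median ratio of 1.02 became 1.31 with untrimmed blank spots, 1.28 without scaling, 1.23 with scaling on bright control probes, 0.838 when the scaling used the miRNAs detected in both pools and 0.790 with quantile normalization. These settings moved the median log2 ratio of all miRNAs by 0.32, 0.33, 0.27, -0.28 and -0.39. After scaling on the members, the number above 2-fold was 31 with the other reference miRNAs in their place, 4 without background subtraction and 6 with normexp and an offset of 50, compared with 17. It was 12 without miR-191 as a reference and 24 without miR-425. The number at 0.5-fold or less, 11, became 17 without miR-191 as a reference and 6 without miR-425, 4 with the other reference miRNAs, 1 without background subtraction and 1 with normexp. A background or offset left in both signals draws the ratios toward each other by construction. Another scaling factor or another choice of reference miRNAs multiplies every ratio by the same number, also by construction. The cause of the remaining changes was not tested. miR-425 gave no ratio when a signal of at least 25 was required in both pools, and local background subtraction gave no member a ratio. Signals at another scanner gain were not used here. Signal over background limits miR-191 and miR-425. No paired analysis was possible because a single array of pooled serum stands for each group.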
